A study of Mus musculus with 11 samples.

Results

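Muscle and general isoforms of the enzymes that break down glycogen and glucose were followed in sorted mouse muscle cells over the first postnatal month. The genes were Pygm, Pfkm, Pfkl, Pfkp, Pgam2, Pgam1, Eno3, Eno1, Ldha and Ldhb, and every probe set that carried 1 of these symbols alone was taken. That gave 16 probe sets of the 45101 on the array, for 9 of the 10 genes, among 18193 genes with a probe set of their own. No probe set was listed under Eno1 alone in the supplied annotation (0 probe sets), so the general enolase is named only and the enolase pair could not be compared.

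The cells came from Pax3GFP/+ mice of C57BL/6J background, in which a GFP allele at Pax3, a transcription factor of the muscle lineage, marks cells for sorting. All groups share this genotype, the enzymatic dissociation, the exclusion of dead cells by propidium iodide and the sort on GFP. P1 (postnatal day 1, n = 4 arrays) and P12 (day 12, n = 4) are labelled as trunk muscle with proliferating satellite cells, the stem cells of skeletal muscle. P28 (day 28, n = 3) is labelled as abdominal, pectoral and intercostal muscle with satellite cells. The P28 arrays carry another suffix in their internal names, together with the code used for P1, and are taken as P28 from their titles. Their lowest log2 values were 1.65 to 2.09, against 0.48 or lower on P12 and P1 arrays. Age, muscles, the label of proliferation, RNA integrity (given below) and a possible batch cannot be told apart in any comparison with P28. How many animals went into an array is not stated, so p-values measure the spread between these arrays.

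Glycolysis splits glucose or glycogen-derived sugar phosphate into pyruvate, and lactate dehydrogenase turns pyruvate into lactate. Skeletal muscle fibres use dedicated isoforms at several steps: glycogen phosphorylase Pygm, phosphofructokinase Pfkm, phosphoglycerate mutase Pgam2 and beta-enolase Eno3. Most other cells, and muscle precursors, use the general forms Pgam1 and Eno1, with the phosphofructokinases Pfkl and Pfkp named for liver and platelet. Ldha encodes the subunit that prevails in fast muscle and Ldhb the one that prevails in heart.

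The muscle forms move together below, so the promoters of Pgam2 and Pygm, and of Eno3, are shown with that of the general form Pgam1. Each line holds the 250 bases before a RefSeq start site (GRCm38.p6), read 5′ to 3′ on the gene's strand. Capitals mark the E-box CANNTG, the motif of basic helix-loop-helix factors such as MyoD.
Pgam2 (chr11:5803797-5804046, minus strand): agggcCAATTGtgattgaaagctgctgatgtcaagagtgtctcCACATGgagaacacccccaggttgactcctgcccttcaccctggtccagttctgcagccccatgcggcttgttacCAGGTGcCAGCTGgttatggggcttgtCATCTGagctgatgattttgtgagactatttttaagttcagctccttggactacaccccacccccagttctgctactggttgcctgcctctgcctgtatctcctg
Pygm (chr19:6384158-6384407, plus strand): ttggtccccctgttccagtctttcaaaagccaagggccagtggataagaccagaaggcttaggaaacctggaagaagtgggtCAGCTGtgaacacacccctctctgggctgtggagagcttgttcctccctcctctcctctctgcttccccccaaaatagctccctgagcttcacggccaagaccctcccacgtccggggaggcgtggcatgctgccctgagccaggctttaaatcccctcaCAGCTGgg
Eno3 (chr11:70656926-70657175, plus strand): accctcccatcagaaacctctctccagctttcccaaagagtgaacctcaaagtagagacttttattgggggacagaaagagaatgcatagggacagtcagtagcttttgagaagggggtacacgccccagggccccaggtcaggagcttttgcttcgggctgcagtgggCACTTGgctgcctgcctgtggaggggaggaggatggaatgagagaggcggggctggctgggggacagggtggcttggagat
Pgam1 (chr19:41911621-41911870, plus strand): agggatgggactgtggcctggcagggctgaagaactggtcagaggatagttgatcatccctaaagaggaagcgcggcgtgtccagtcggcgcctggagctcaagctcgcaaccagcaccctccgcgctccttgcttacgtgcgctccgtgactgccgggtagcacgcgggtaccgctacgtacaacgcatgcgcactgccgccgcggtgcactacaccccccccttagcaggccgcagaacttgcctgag

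The Pgam2 window held 5 E-boxes, the Pygm window 2, the Eno3 window 1 and the Pgam1 window 0. For the other genes, the Pfkl window held 3, the Pfkm windows 3, 0, 1 and 1, and the Pfkp and Ldhb windows 0. The Ldha windows held 2 each and the Eno1 windows 2, 0 and 0. E-box number thus did not separate muscle forms from general forms in these windows. Among all 32851 RefSeq windows of this length, 66.2% held at least 1, 31.8% held 2 or more and 1.15% held 5 or more. CANNTG reads the same on both strands, and the form CAGCTG, itself a CANNTG, was found once for Pgam2 and 2 times for Pygm, against 13.0% of all windows with at least 1. The MEF2 motif, searched on both strands, was found once, 80 bases before the Pgam2 start, and 2.92% of all windows held it. Neither CAGCTG nor the MEF2 motif was in the windows of the other measured isoform genes. These are matches of letters and were not tested as sites.

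A further promoter is shown for Ldha, whose window stood out for another motif. Here capitals mark ACGTG on either strand, the core of the sites of hypoxia-inducible factors.
Ldha (chr7:46845554-46845803, plus strand): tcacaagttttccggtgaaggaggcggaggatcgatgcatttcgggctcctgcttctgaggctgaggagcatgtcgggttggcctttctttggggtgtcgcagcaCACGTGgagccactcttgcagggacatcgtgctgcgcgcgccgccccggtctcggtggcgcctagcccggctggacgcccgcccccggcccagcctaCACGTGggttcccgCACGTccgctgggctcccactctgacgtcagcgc

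This Ldha window held 5 matches to ACGTG, where CACGTG counts on each strand and is also an E-box, and the other Ldha window held 0. The Pfkm windows held 2, 1, 0 and 0, the Pygm and Pgam1 windows 1 each, and the windows of the other isoform genes 0. Of all windows, 16.6% held at least 1 match and 0.134% held 5 or more.

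All values below are log2 RMA values, an intensity scale per probe set as deposited by the authors, and changes are log2 differences ± SE from limma. Array medians ran from 5.5 to 5.57, and the background, read on the Trp spike-in controls, from 3.36 to 3.64. The satellite cell marker Pax7 averaged 10.75 at P1, 10.78 at P12 and 10.72 at P28, and the mean of the 12 satellite cell markers was 9.46 to 10.06, 9.83 to 10.17 and 10.46 to 10.68. The beta-actin 3′ minus 5′ log2 difference, a measure of RNA integrity, was 1.25 to 2.24 at P1, 1.08 to 2.48 at P12 and 0.43 to 0.77 at P28. P1 and P12 replicates 1 and 2 (called array set 1 here) had higher differences than replicates 3 and 4 (array set 2).

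P28 against P12 sets cells labelled as satellite cells of a later age against cells labelled as proliferating. The muscle isoforms Pgam2, Eno3, Pygm and Pfkm were higher at P28 by log2 values of 1.88 to 3.07. The general forms Pgam1 and Pfkl differed by at most 0.10 in size on every probe set and did not pass. The platelet-type Pfkp did not share that course. It rose on 1416069_at (1.71) and 1430634_a_at (2.12) and did not pass on 1437759_at (0.15). Of the 16 probe sets, 11 rose and 0 fell (68.8% rose). Among all 45037 tested, 29.4% passed, 13.5% rose and 15.9% fell. The same 11 had P28 values that did not overlap the P12 values, as did 15.4% of all probe sets in that direction. By the highest-mean probe set of each gene, 7 of 9 genes rose, against 15.5% of all 18193 genes. The median change was 1.44 over the 16 probe sets and -0.05 over all. In sorted bulk cells, more cells of a type and more RNA per cell cannot be told apart.

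**Figure D1:**
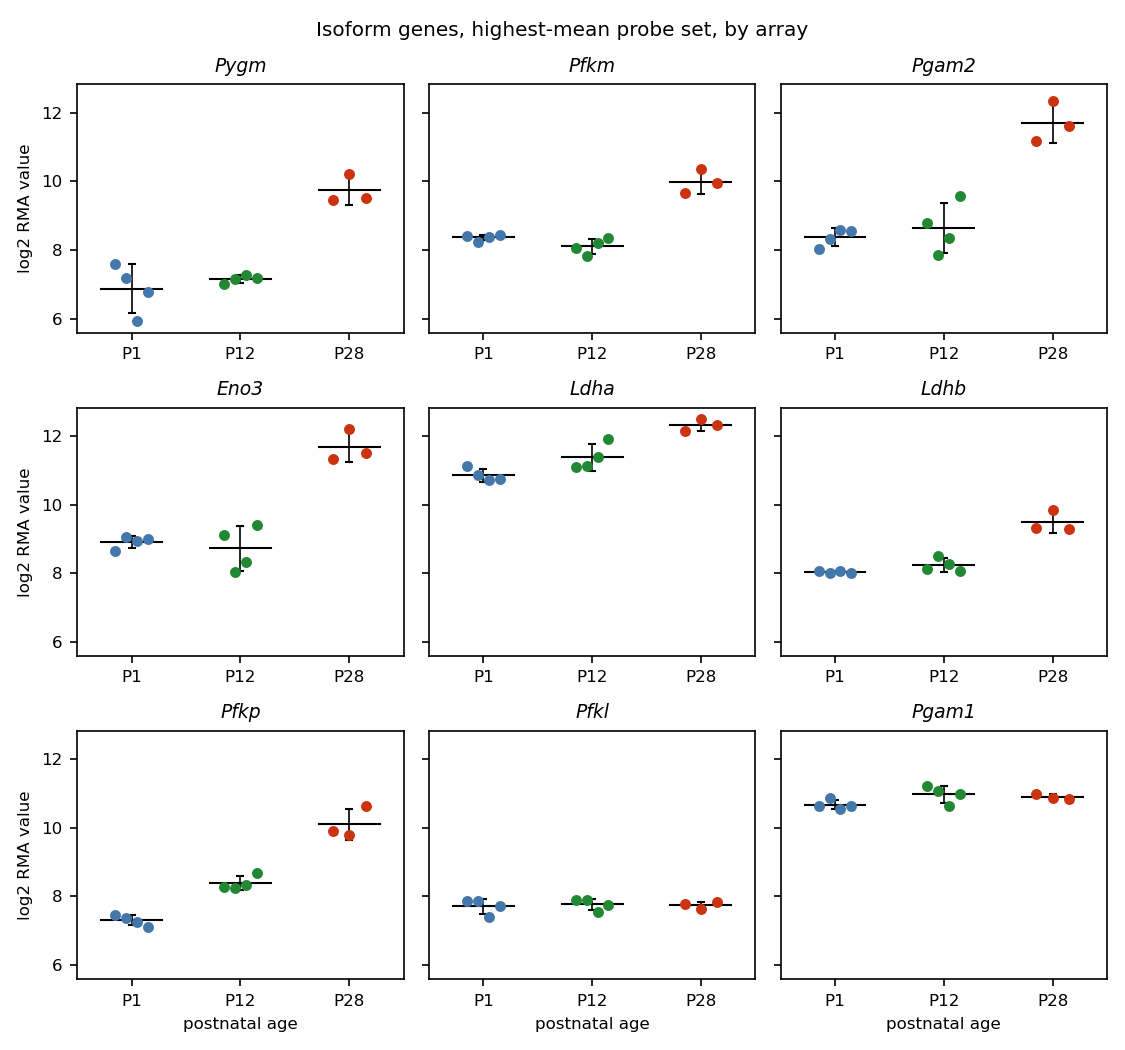
Log2 RMA value (vertical axis) of the highest-mean probe set of each gene at P1 (n = 4 arrays), P12 (n = 4) and P28 (n = 3). Points are arrays, horizontal lines are means and bars are SD. Pgam2 and Eno3 exceed 11 in all P28 arrays and stay under 10 in all others, Pfkp separates at each age, and Pgam1 and Pfkl overlap across the ages.

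Pygm, which releases glucose 1-phosphate from muscle glycogen, was at 9.47, 10.22 and 9.51 in the P28 arrays, against 7.0, 7.16, 7.26 and 7.19 at P12. The P28 arrays lay clear of the P12 arrays, and the P12 arrays lay close together. The gene rose by 2.58 ± 0.30 (limma adjusted p = 3.44e-05, 5.99-fold). Its P1 arrays, at 7.60, 7.19, 5.92 and 6.77, spread more widely (SD 0.72, n = 4) than the P12 arrays (SD 0.11, n = 4), with replicate 3 lowest. Against P1 the P28 arrays were higher by 2.86 ± 0.30 (limma adjusted p = 8.78e-06), with no overlap.

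Phosphofructokinase commits sugar phosphate to glycolysis and is built from 3 kinds of subunit. Pfkm, the muscle subunit, was at 9.67, 10.37 and 9.94 at P28, against 8.06, 7.83, 8.21 and 8.35 at P12. All P28 arrays were above all P12 arrays, and the change of 1.88 ± 0.17 passed (limma adjusted p = 3.29e-06). At P1 it was at 8.40, 8.24, 8.39 and 8.43, again below every P28 array (change 1.63 ± 0.17, limma adjusted p = 6.38e-06).

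Pfkl, the liver-type subunit, has 3 probe sets. The highest-mean set, 1450269_a_at, was at 7.77, 7.62 and 7.83 at P28, against 7.89, 7.89, 7.55 and 7.75 at P12. The groups overlapped and the difference was -0.03 ± 0.14 (limma adjusted p = 0.912). The other probe sets, 1439148_a_at and 1453541_at, differed by 0.09 ± 0.19 and -0.10 ± 0.15 and did not pass either. None of the 3 passed in any comparison, and the difference of greatest size was 0.34 ± 0.19 (1439148_a_at, P28 against P1, limma adjusted p = 0.179). With the beta-actin 3′ to 5′ difference as a covariate that value was 0.70 ± 0.22 and passed (limma adjusted p = 0.0339). The covariate did not overlap between P28 and P1, so this value is an extrapolation.

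Pfkp, the platelet-type subunit, was the only gene of the 9 to pass in every comparison by its highest-mean probe set. On 1416069_at it was at 9.91, 9.78 and 10.62 at P28, against 8.28, 8.24, 8.34 and 8.70 at P12, with no overlap (1.71 ± 0.19, limma adjusted p = 2.03e-05). At P1 the same probe set was at 7.48, 7.39, 7.26 and 7.12, below every P12 array. Its change between P28 and P1 was 2.79 ± 0.19 (limma adjusted p = 1.78e-07, 6.92-fold).

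The 3 Pfkp probe sets gave different courses. The probe set 1430634_a_at was at 7.02, 6.92 and 7.95 at P28, against 5.19, 4.55, 5.48 and 5.47 at P12, and rose (2.12 ± 0.27, limma adjusted p = 7.03e-05). The probe set 1437759_at was at 6.55, 6.71 and 6.88 at P28, against 6.67, 6.83, 6.02 and 6.73 at P12, and overlapped (0.15 ± 0.18, limma adjusted p = 0.577). Between P12 and P1 it was the other way round, since 1437759_at rose by 0.83 ± 0.17 (limma adjusted p = 0.013) and 1430634_a_at differed by 0.23 ± 0.25 (limma adjusted p = 0.708). The difference between probe sets was not tested, and the files do not say which transcripts each detects.

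Phosphoglycerate mutase moves the phosphate of 3-phosphoglycerate, and its muscle form had the largest change among the isoform genes. Pgam2 was at 11.17, 12.33 and 11.60 at P28, against 8.78, 7.84, 8.34 and 9.56 at P12. The lowest P28 array was above the highest P12 array, which was replicate 4. The change was 3.07 ± 0.34 (limma adjusted p = 2.04e-05, 8.38-fold), and 0.266% of all probe sets had a larger increase. Against the P1 arrays, at 8.04, 8.33, 8.60 and 8.55, the change was 3.32 ± 0.34 (limma adjusted p = 6.24e-06).

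The general form Pgam1 was at 10.99, 10.86 and 10.84 at P28, against 11.21, 11.06, 10.64 and 10.99 at P12. These arrays overlapped (-0.08 ± 0.14, limma adjusted p = 0.731). The P1 arrays, at 10.64, 10.86, 10.56 and 10.64, did not differ past the threshold from P28 (0.22 ± 0.14, limma adjusted p = 0.243). The P28 arrays of Pgam1 also had the smallest spread of the 3 ages (SD 0.08, n = 3, against 0.24 at P12 and 0.13 at P1, n = 4 each).

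Enolase makes phosphoenolpyruvate, and Eno3 encodes its muscle form. Eno3 was at 11.34, 12.20 and 11.51 at P28, against 9.12, 8.04, 8.33 and 9.40 at P12. All P28 arrays stood above all P12 arrays. Eno3 was highest in P28 replicate 2 and in P12 replicate 4, the same arrays as for Pgam2. The change was 2.96 ± 0.29 (limma adjusted p = 7.76e-06, 7.78-fold). The P1 arrays were at 8.65, 9.05, 8.93 and 8.99, and P28 was higher by 2.78 ± 0.29 (limma adjusted p = 7.75e-06).

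Both lactate dehydrogenase genes rose. Ldha was at 12.15, 12.49 and 12.31 at P28, against 11.09, 11.12, 11.37 and 11.92 at P12, with P12 replicate 4 closest to P28 (0.94 ± 0.19, limma adjusted p = 0.00201). With the beta-actin 3′ to 5′ difference as a covariate this call was lost (0.71, adjusted p = 0.073). Here too the covariate did not overlap between the ages compared. Ldhb on 1434499_a_at was at 9.32, 9.86 and 9.28 at P28, against 8.12, 8.51, 8.26 and 8.06 at P12 (1.25 ± 0.15, limma adjusted p = 5.18e-05). The other 3 Ldhb probe sets rose by 1.42 to 1.66, and 2 of the 4 are of the _x_at type, whose probes can also match other transcripts.

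**Figure D2:**
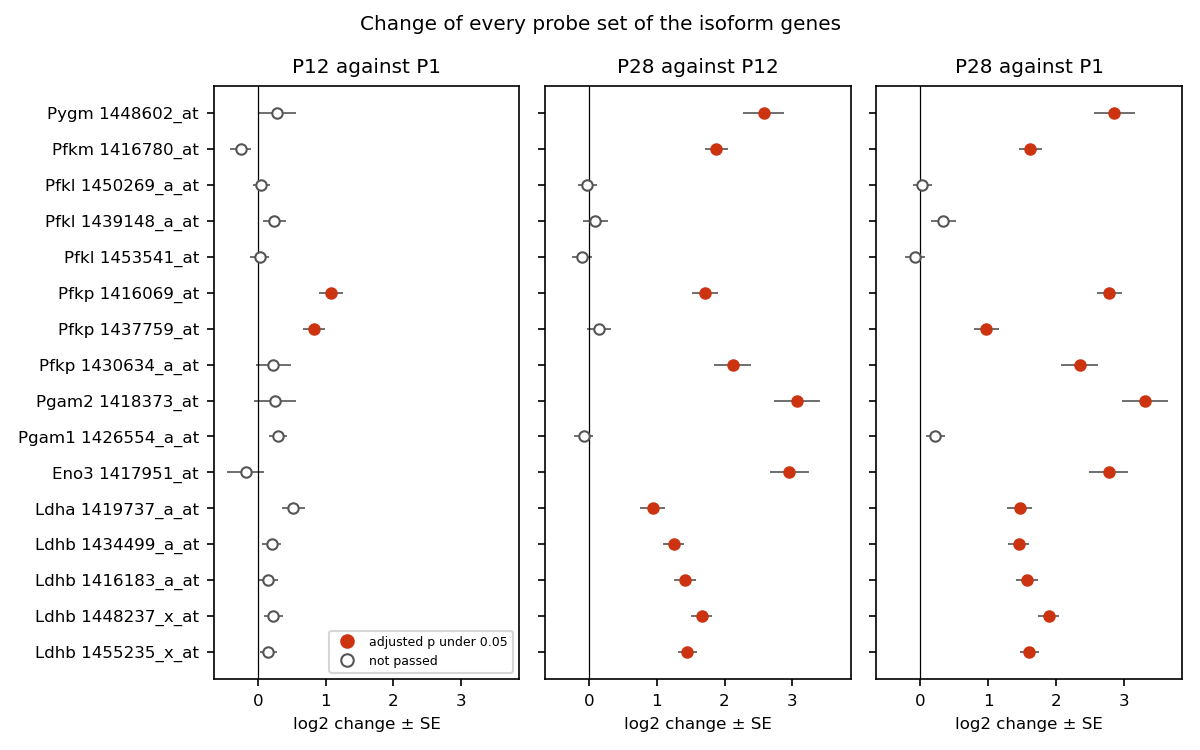
Log2 change ± SE (horizontal axis) of all 16 probe sets in 3 comparisons, with filled points for an adjusted p under 0.05 in limma. In both comparisons with P28 the filled points include all 4 Ldhb sets, Pygm, Pfkm, Pgam2, Eno3 and Ldha, and in P12 against P1 only 2 Pfkp sets are filled.

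Whether an isoform pair shifted was measured as the per-array log2 difference between its probe sets, of which only the change between ages can be read. The Pgam2 minus Pgam1 difference was higher by 3.14 at P28 than at P12 (SD 0.64, n = 3, and 0.73, n = 4). The Pfkm minus Pfkl difference was higher by 1.91 (SD 0.44, n = 3, and 0.35, n = 4). In both pairs the arrays of the 2 ages did not overlap, and the exact two-sided permutation p was 0.0571, the smallest that 3 against 4 arrays can give, so neither could pass. For Pfkm minus Pfkp the change was 0.17 (exact p = 0.743) and for Ldha minus Ldhb it was -0.31 (exact p = 0.457), each with overlapping arrays.

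The marker lists moved with these changes. Of 20 muscle fibre genes, 16 rose and 2 fell at P28 against P12 (median 2.03, -0.03 over all genes), and the list mean was 10.59 to 11.03 at P28, against 8.46 to 9.28 at P12. By the highest-mean probe set of each gene, 15.5% of all 18193 genes rose and 15.4% fell. The skeletal alpha-actin Acta1 rose by 2.21 ± 0.27, the light chain Mylpf by 1.59 ± 0.28 and the fast troponin Tnnc2 by 1.29 ± 0.25. The 2 that fell were the developmental myosins Myh3 (-1.32) and Myh8 (-1.64). P28 replicate 2, the highest array for Pgam2, Eno3, Pygm and Pfkm, was also the highest for the fibre list, and P12 replicate 4 was the highest P12 array for that list. This was not particular to the fibre list. Among P28 arrays, replicate 2 was also highest for the neutrophil, erythroid and endothelial lists, but not for the other marker lists. Among P12 arrays, replicate 4 was also highest for the erythroid, endothelial, macrophage and cell cycle lists, but not for the others.

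Markers of blood cells and vessels were higher at P28 too. All 9 measured neutrophil genes rose (list mean 8.71 to 9.94 at P28, against 5.12 to 5.74 at P12), with S100a9 up by 5.78 ± 0.39, S100a8 by 5.53 ± 0.46 and Ngp by 4.89 ± 0.46. Of 6 measured erythroid genes, 5 rose (6.74 to 8.13, against 5.42 to 5.65), with the red cell anion exchanger Slc4a1 up by 5.65 ± 0.49, the haem synthesis enzyme Alas2 by 2.76 ± 0.43, the erythropoietin receptor Epor by 0.46 ± 0.16 and the globin Hba-a1 at 4.12 at P28, against 4.17 at P12. Of 10 endothelial genes 8 rose (7.74 to 8.51, against 6.19 to 6.88), of 10 macrophage genes 5 rose (7.39 to 8.59, against 6.26 to 6.71), and of 9 fibro-adipogenic genes 5 rose (10.72 to 11.39, against 9.69 to 10). Among the endothelial genes with the highest levels, the receptors Kdr (1.64 ± 0.22) and Tek (1.58 ± 0.25) rose and Egfl7 (0.21 ± 0.23) did not pass. Among those of macrophages, lysozyme Lyz2 (4.04 ± 0.25) rose, and Csf1r (0.70 ± 0.33) and C1qb (0.94 ± 0.34) did not pass. The fibro-adipogenic genes with the highest levels, the collagens Col3a1 (0.01), Col1a2 (0.11) and Col1a1 (-0.32), did not pass. All 11 measured cell cycle genes fell (7.89 to 8.77, against 9.33 to 9.94), with Mki67 at -1.33 ± 0.21, Top2a at -1.76 ± 0.30 and Cdk1 at -1.22 ± 0.24. Of 12 satellite cell markers 4 rose and 0 fell, and of those with the highest levels Chodl rose (0.63 ± 0.21) while Vcam1 (-0.05) and Spry1 (0.11) did not pass. The part of fibre, blood or vessel RNA in the isoform changes was not tested.

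**Figure D3:**
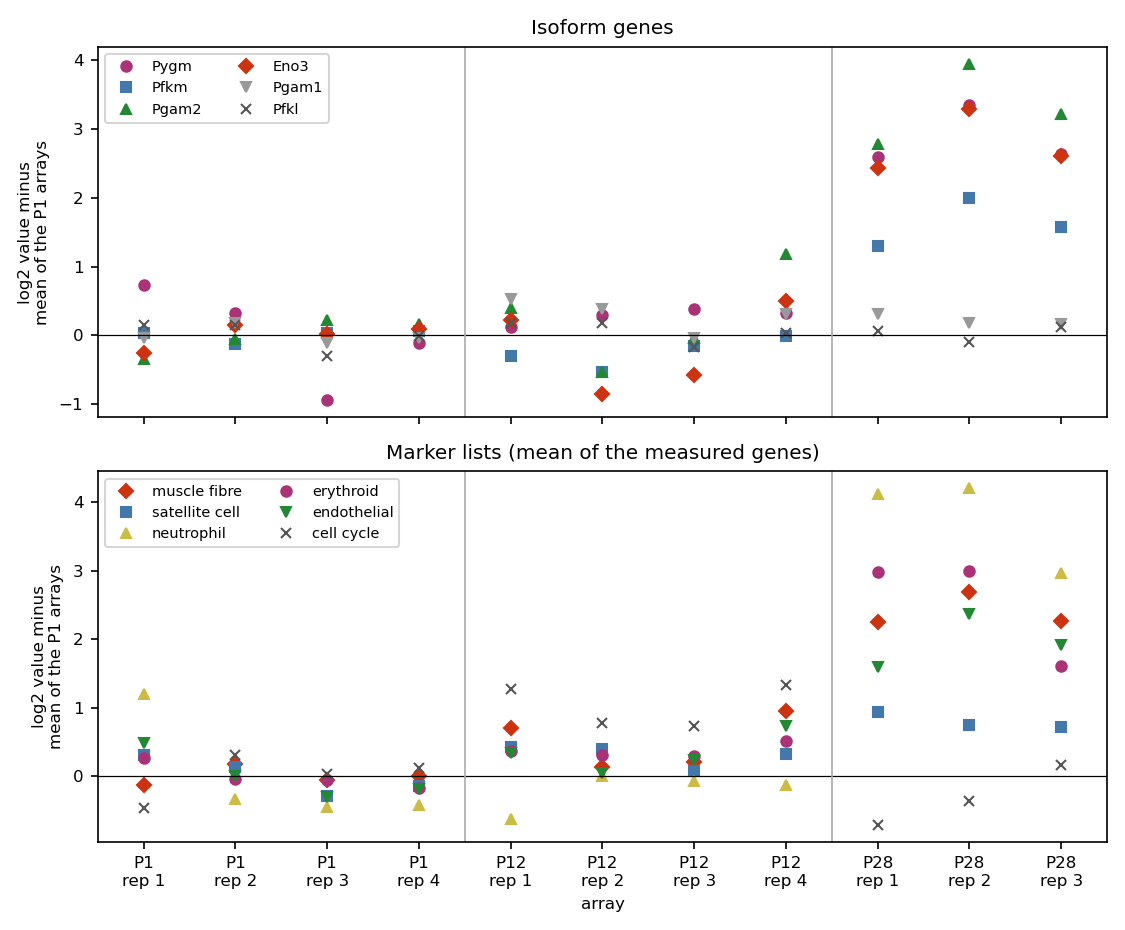
Log2 value of each array minus the mean of the P1 arrays (vertical axis), for 6 isoform genes in the upper panel and for the means of 6 marker lists in the lower panel, with arrays in order of age on the horizontal axis. The muscle isoforms and the fibre, neutrophil, erythroid and endothelial lists are all higher in the P28 arrays, where Pgam1 and Pfkl stay near 0.

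Between P12 and P1, both labelled as proliferating cells of trunk muscle, the muscle isoforms did not pass. Of the 16 probe sets 2 rose and 0 fell (12.5% rose), and both were of Pfkp. Among all probe sets 4.84% passed, 3.25% rose and 1.59% fell. On 1416069_at Pfkp was at 8.28, 8.24, 8.34 and 8.70 at P12, against 7.48, 7.39, 7.26 and 7.12 at P1. All P12 arrays were above all P1 arrays, as for 6.18% of all probe sets, and the change was 1.08 ± 0.17 (limma adjusted p = 0.00361, 2.11-fold). Within array sets 1 and 2 it was 0.83 and 1.33, and set 1 alone did not pass (adjusted p = 0.0774). For 1437759_at the values were 1.11 in array set 1, which passed (adjusted p = 0.0471), and 0.55 in array set 2, which did not (adjusted p = 0.196).

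The other genes did not pass at P12 against P1 when all arrays were used. Eno3 averaged 8.72 ± 0.64 at P12 and 8.90 ± 0.18 at P1 (SD, n = 4 each), a difference of -0.18 ± 0.27 (limma adjusted p = 0.804). Pgam2 differed by 0.25 ± 0.31, Pygm by 0.28 ± 0.28 and Pfkm by -0.25 ± 0.15, with overlapping arrays. For Pygm the 2 array sets went opposite ways (-0.32 and 0.88), and neither passed. Ldha differed by 0.53 ± 0.17 (limma adjusted p = 0.109), with 0.13 in array set 1 and 0.93 in array set 2, where it passed (adjusted p = 0.033).

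Several fibre genes rose over the same interval. Of the 20, 7 rose and 2 fell in P12 against P1, among them the calcium buffer Pvalb (3.29 ± 0.27) and the fast myosin Myh4 (3.32 ± 0.40), while Ckm (-0.14), Tnnt3 (-0.17) and Acta1 (-0.20) did not pass. Myh4 averaged 7.06 at P12 and 3.73 at P1, the second value lying close to the background controls. Of 11 cell cycle genes 8 rose and 0 fell, and of 12 satellite cell markers 3 rose and 0 fell. Of 9 fibro-adipogenic genes 3 fell, which were Pdgfra (-1.45 ± 0.29), Mfap5 (-1.02 ± 0.27) and Cd34 (-0.60 ± 0.15), and of 10 macrophage genes 1 fell, Cd68 (-1.38 ± 0.22). No neutrophil, erythroid or endothelial gene passed (0 of 9, 0 of 6 and 0 of 10 in limma). Among all genes 3.94% rose and 1.85% fell, and at these shares lists this short can hold none.

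For isoform pairs in P12 against P1, the Pfkm minus Pfkp difference was lower by 1.33 (change -1.33), with P12 arrays at -0.41 to -0.13 and P1 arrays at 0.86 to 1.30. These ranges did not overlap, and the exact two-sided permutation p was 0.0286, the smallest 4 against 4 arrays allow, with an adjusted p of 0.114 over the 4 pairs. Pfkm minus Pfkl changed by -0.31, Pgam2 minus Pgam1 by -0.05 and Ldha minus Ldhb by 0.32 (exact permutation p = 0.229, 0.914 and 0.343). No pair passed after adjustment (0 of 4), and 1 had an unadjusted p under 0.05. A pair at the smallest p could pass after adjustment only if other pairs reached it too. The test could therefore not call Pfkm minus Pfkp alone.

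P28 against P1 shares its arrays with the other comparisons and is given for its own values. Of the 16 probe sets 12 rose and 0 fell (75% rose), all 12 without overlap. Among all probe sets 35% passed, 17.6% rose, 17.4% fell and 19.3% were higher without overlap. The 12th, besides those that rose against P12, was Pfkp 1437759_at (0.98 ± 0.18, limma adjusted p = 0.000807). Ldha rose by 1.47 ± 0.19, and the 4 Ldhb probe sets rose by 1.46 to 1.90.

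Other genes of glucose breakdown were set beside the isoforms. Of 16 measured glycolysis genes outside the isoforms, 4 rose and 3 fell in P28 against P12 (median 0.04), against 15.5% and 15.4% of all genes. Those that rose were Tpi1 (1.40 ± 0.21), which interconverts the triose phosphates, Bpgm (1.22 ± 0.26), the bisphosphoglycerate mutase that red cells use, the hexokinase Hk2 (1.17 ± 0.21) and the muscle aldolase Aldoa (0.85 ± 0.15). The 3 that fell were the low-level Ldhal6b, neuronal enolase Eno2 and testis Ldhc, at 4.02 to 4.97 at P28. Phosphoglycerate kinase Pgk1 (-0.16) and pyruvate kinase Pkm (0.19) did not pass there.

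Pgk1, Pkm and Bpgm were instead the 3 of this list that rose in P12 against P1, by 0.74 ± 0.17, 0.79 ± 0.20 and 1.12 ± 0.24, and 0 fell. In that comparison 3.94% of all genes rose and 1.85% fell. In P28 against P1, 7 of the 16 rose and 1 fell, against 19.9% of all genes that rose and 16.3% that fell.

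**Figure D4:**
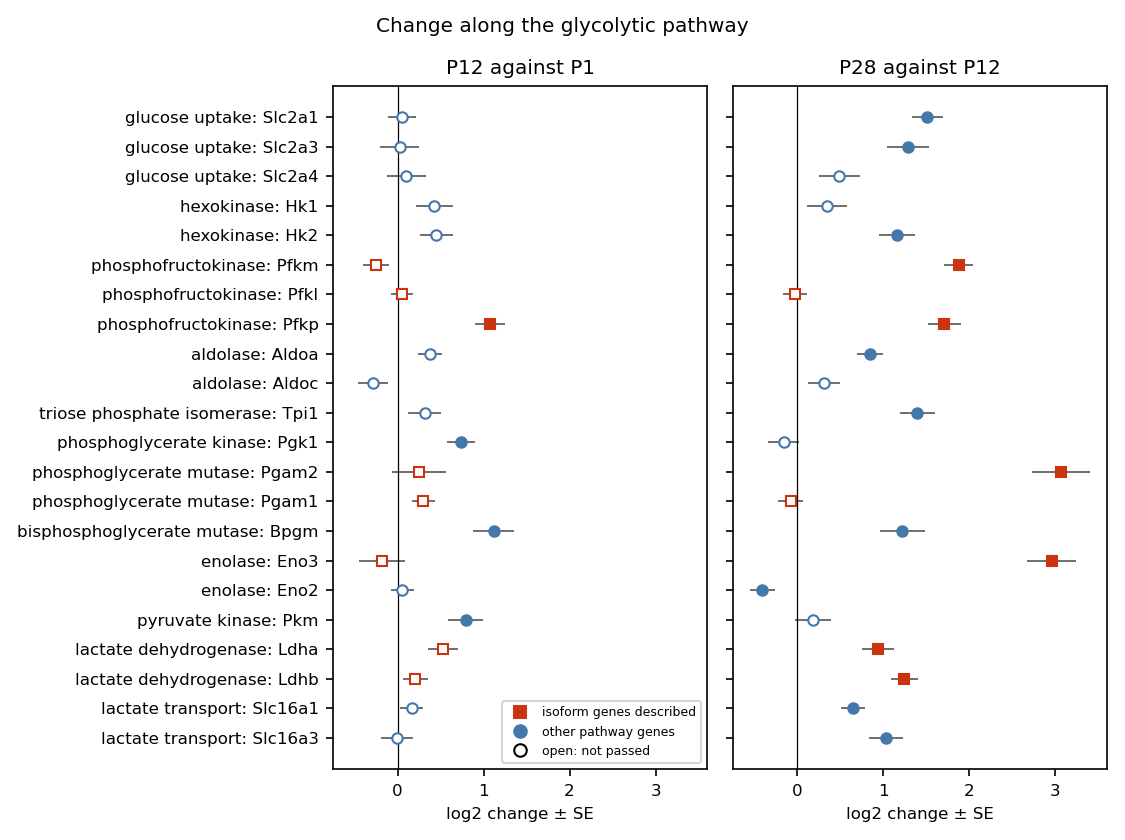
Log2 change ± SE (horizontal axis) along the steps from glucose uptake to lactate transport, for P12 over P1 on the left and P28 over P12 on the right. Squares are the isoform genes, circles are other pathway genes and filled symbols passed in limma. Pfkp, Pgk1, Bpgm and Pkm are filled on the left, and on the right the largest changes are those of Pgam2 (3.07) and Eno3 (2.96).

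Glycogen genes beside Pygm passed in the comparisons with P28. Of 26 measured, 10 rose and 2 fell in P28 against P12 (median 0.24), against 15.5% and 15.4% of all genes. In P12 against P1 none passed in limma (0 rose, 0 fell, median 0.03), against 3.94% and 1.85% of all genes. The largest changes were those of Ppp1r3c (3.05 ± 0.30), which targets a phosphatase to glycogen, and Phkg1 (2.70 ± 0.21), the muscle catalytic subunit of the kinase that activates Pygm. Phkg1 averaged 6.69 at P28 and 3.99 at P12, the second value lying close to the background controls. Phosphoglucomutases Pgm1 (1.52 ± 0.22) and Pgm2 (1.29 ± 0.18), the glycogen primer Gyg (1.31 ± 0.16) and the liver phosphorylase Pygl (1.11 ± 0.29) also rose. The phosphatase subunit Ppp1r3e (-0.86 ± 0.18) and the kinase subunit Phka2 (-0.63 ± 0.15) fell, and the brain phosphorylase Pygb (-0.09) did not pass. In P28 against P1, 11 rose and 2 fell, against 19.9% and 16.3% of all genes.

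The genes whose pattern over the 11 arrays was most like that of an isoform gene were found by Pearson correlation among 16282 genes, as a description. The P28 mean was the highest of the 3 ages in each of these genes, so the age groups are shared by all points. For Eno3 they were Ckm (r = 0.998), Tnnt3 (0.995) and Myoz1 (0.994), a creatine kinase, a troponin and a Z-disc protein of muscle fibres. For Pgam2 they were Myl9 (0.996), the tropomodulin Tmod4 (0.995) and the endothelial factor Sox18 (0.991). For Pygm they were Gabarap (0.995), Tinagl1 (0.986) and Rbpms (0.983). For Pfkp they were Zfp954 (0.991), the phosphatase Dusp10 (0.990) and Scml4 (0.989). In the genes named for Pgam2, Pygm and Pfkp the P12 mean lay between those of P1 and P28. In those named for Eno3 the P12 mean was the lowest.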

How the data were processed

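The deposited table holds log2 expression values per probe set of Affymetrix mouse whole-genome arrays. Per the submitters' processing notes the authors used RMA, Affymetrix Expression Console and affy, named without versions or roles. The genome build is not given in the sources used here. Arrays give no read depth, and their number limits the precision. Columns were matched to samples by accession, and groups come from the titles.

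The 64 control probe sets were left out. The remaining 45037 were fitted with limma 3.58.1 in R 4.3.3 (group means over 11 arrays, contrasts, eBayes with 8 residual and 5.82 prior degrees of freedom), two-sided, with Benjamini-Hochberg adjustment over all of them and a threshold of 0.05. Gene lists used the highest-mean probe set of each of 18193 genes. The scripts were tested on simulated data. Isoform pairs were tested by exact permutation, two-sided, with p from doubling the smaller tail. Of 5 planned pairs, 4 had both members measured. All 16 probe sets matched RefSeq by Entrez identifier and symbol.

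The members, lists and tests were chosen with earlier results of these data known. Named were all member probe sets, up to 6 genes per pathway list and comparison with the largest change among those that passed, the 3 markers of each list with the highest mean, Pax7, and the 3 genes most correlated with Eno3, Pgam2, Pygm and Pfkp. Hba-a1, Myh3, Myh4, Myh8, Pvalb, Pdgfra, Mfap5, Cd34, Cd68, Pygb, Ldhc, Ppp1r3e, Phka2, and Pgk1 and Pkm at P28, were named after their values were seen. Promoters are from RefSeq (GRCm38.p6), found for 10 genes in 16 windows. Alternatives were 2 normalizations, gene-level summaries, filters, spread models, a replicate block, array sets, a 3′ to 5′ covariate and leaving out each array. Deviations from the group means of same-numbered P12 and P1 arrays correlated at 0.143 to 0.311, all over the 0.1 taken to mean pairing, and those of P28 with P12 or P1 arrays at -0.122 to 0.0931. The labels give no pairing, and arrays of different number in the same array set correlated at 0.14 to 0.247 as well. These values therefore cannot tell pairing by number from a shared array set.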

Additional observations from a re-analysis of the deposited data

Results flagged for a closer look

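In 1 of 32 groups of 4 arrays examined (16 probe sets at P1 and at P12), an array stood far from the others by Dixon's criterion, which chance meets in about 1 in 20 groups. Pfkl 1439148_a_at was at 7.13 in P12 replicate 3, against 7.57 to 7.62 in the other P12 arrays. The other Pfkl probe sets were at 7.55 and 5.39 in that array.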

How the results depend on the processing

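The member probe sets called numbered 2 (P12 over P1), 11 (P28 over P12) and 12 (P28 over P1), and leaving out each array in turn gave 2 to 2, 11 to 11 and 12 to 12. With the highest-mean probe set of a gene or the mean of its probe sets, 1, 7 and 7 of 9 genes passed, fewer because genes replace probe sets. Over all 18193 genes, the highest-mean probe set gave 1195, 5716 and 6656, and the mean gave 1253, 5856 and 6921. Within array set 1, 1 probe set passed for P12 over P1, Pfkp 1437759_at, and Pfkp 1416069_at did not (0.83). The 3′ to 5′ covariate gave 2, 10 and 13, with Ldha lost for P28 over P12 and Pfkl 1439148_a_at gained for P28 over P1. This covariate did not overlap between P28 and the other ages, so its fits for P28 cannot separate RNA integrity from age. The replicate block gave 2, 11 and 12 and changed no call of the 9 genes. It could call none of the 4 isoform pairs, since 4 arrays per age paired by number cannot give an exact p under 0.05. Of 126 values of the 7 genes called for P28 over P12, 125 kept direction and call, the exception being Ldha with the 3′ to 5′ covariate, and for P28 over P1 all 126 did. Over all probe sets, 2181 (P12 over P1) and 13229 (P28 over P12) passed. The covariate gave 7496 for P28 over P12, and for P12 over P1 3267. For P12 over P1 the array set as a block gave 3543, array set 1 alone 230, and 1071, 1029, 1105 and 1100 passed without P1 replicate 3, P1 replicate 4, P12 replicate 1 and P12 replicate 4. For P28 over P1, 15753 passed, against 10621 with the covariate. The Pfkm minus Pfkp change was -0.97 when probe sets of a gene were averaged.

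Some differences that had not passed changed sign and still did not pass, and the cause was not tested. Quantile normalization gave -0.053 (P12 over P1) and -0.16 (P28 over P1) for Pfkl and -0.032 (P28 over P1) for Pgam1. The covariate gave 0.26 for Pfkl and 0.16 for Pgam1 (P28 over P12), and array set 1 gave -0.32 for Pygm. Leaving out each array in turn gave, for P12 over P1, -0.034 to 0.53 for Pygm, -0.047 to 0.13 for Pfkl, -0.058 to 0.51 for Pgam2 and -0.41 to 0.048 for Eno3. It gave -0.073 to 0.088 for Pfkl in P28 over P1, and -0.099 to 0.033 for Pfkl and -0.19 to 0.0018 for Pgam1 in P28 over P12.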

Other observations

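A list of regulators and transporters around glycolysis, from glucose uptake to the use of pyruvate and lactate, also held genes that differed between the ages. Of 24 measured regulators and transporters, 11 rose and 1 fell in P28 against P12 (median 0.45), where 15.5% of all genes rose and 15.4% fell. Between P12 and P1 the list had 3 genes that rose and 0 that fell (median 0.13), against 3.94% and 1.85% of all genes. In P28 against P1 the numbers were 13 and 2, against 19.9% and 16.3%. The pyruvate carrier Mpc1 rose by 1.35 ± 0.21 in P28 against P12 and by 0.89 ± 0.20 in P12 against P1. The pyruvate dehydrogenase kinase Pdk4, which switches that complex off, rose by 0.92 ± 0.20 in P12 against P1, and the opposing phosphatase Pdp1 rose by 1.00 ± 0.15. Both passed in P28 against P1 as well (1.80 ± 0.22 and 1.55 ± 0.16).

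In P28 against P12 the glycerol phosphate dehydrogenase Gpd1 rose by 1.73 ± 0.25, the activator-forming enzyme of phosphofructokinase Pfkfb3 by 1.56 ± 0.21, and the glucose transporters Slc2a1 and Slc2a3 by 1.52 ± 0.18 and 1.29 ± 0.25. The kinase Pdk2 rose by 1.15 ± 0.26. These P28 values carry the same limits of age, muscles, the label of proliferation, RNA integrity and a possible batch.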
